A study of Homo sapiens with 9 samples.

Results

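The 50 genes described here act in the G2 phase and in mitosis, and were chosen by a fixed list of gene names, each read from the brightest of its probes. The list was chosen with earlier results of these data known. All 50 were measured, passed the filter on dim probes and belonged to the 16180 genes tested in all. RNA of MKN45, a human cell line established from gastric cancer, was hybridised to 9 single-colour Illumina bead arrays in 3 groups of 3. The groups were mock cells, cells with the control vector and cells with the YAP-S127A vector, which encodes the transcriptional coactivator YAP1 with a serine that Hippo pathway kinases phosphorylate replaced by alanine. The labels name neither the delivery method nor the time after it, no clone, and no other agent or allele. Whether the 3 arrays of a group stand for separate cultures is not stated, so the p-values rest on a spread that may be only technical. In bulk RNA a larger share of cells in mitosis and more of a transcript per mitotic cell cannot be told apart.

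Entry into mitosis is driven by cyclin B bound to the kinase CDK1, which CDC25 phosphatases switch on. Aurora and Polo kinases then build the spindle, the spindle checkpoint holds back anaphase until every kinetochore is attached, and the anaphase-promoting complex with CDC20 releases the sister chromatids. Kinesin motors sort the chromosomes, and the centralspindlin complex directs cytokinesis. Most of these genes are silent in early G1 and are transcribed late in the cycle, when the MuvB complex with MYBL2 and FOXM1 acts on promoters that carry a cell cycle homology region (CHR) and, often, CCAAT boxes bound by NF-Y.

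These letters were searched in the RefSeq promoter windows of the GRCh38.p14 assembly, which span 250 bases before to 50 after a gene's start. A CHR was taken as TTTGAA or TTCGAA on either strand, and a CCAAT box as CCAAT on either strand. The table held 51 windows of 41 of the 50 genes. A CHR stood in 35 of the 51 windows (68.6%), against 16.4% of all 35116 windows in the table. CCAAT stood in 38 (74.5%), against 34.6% of all windows, and both in 29 (56.9%), against 6.38%. Counting each genomic site once, since TTCGAA is its own reverse complement and some windows of 1 gene overlap, these genes held 44 CHR sites, of which 32 began within 50 bases of a start. Sites were not counted in this way over all windows, so these site counts have no background. A match is a description of the letters and not evidence of a bound factor. The 6 windows below belong to genes with a CHR whose value on every array is given further on, taken in order of the F test over the 3 groups. Each is written 5′ to 3′ on the strand of the gene, with CHR and CCAAT letters, or their reverse complements TTCAAA and ATTGG, in capitals. CDCA3 lies on the minus strand at chr12:6851237-6851536, CDC20 on the plus strand at chr1:43358731-43359030, CENPN on the plus strand at chr16:81006964-81007263, PLK1 on the plus strand at chr16:23678639-23678938, KIF11 on the plus strand at chr10:92592880-92593179 and TOP2A on the minus strand at chr17:40417847-40418146.
CDCA3: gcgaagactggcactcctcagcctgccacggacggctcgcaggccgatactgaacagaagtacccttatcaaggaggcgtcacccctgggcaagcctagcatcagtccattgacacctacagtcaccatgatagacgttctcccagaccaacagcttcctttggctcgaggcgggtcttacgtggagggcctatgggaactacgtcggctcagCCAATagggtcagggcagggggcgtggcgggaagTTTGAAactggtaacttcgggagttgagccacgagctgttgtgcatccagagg
CDC20: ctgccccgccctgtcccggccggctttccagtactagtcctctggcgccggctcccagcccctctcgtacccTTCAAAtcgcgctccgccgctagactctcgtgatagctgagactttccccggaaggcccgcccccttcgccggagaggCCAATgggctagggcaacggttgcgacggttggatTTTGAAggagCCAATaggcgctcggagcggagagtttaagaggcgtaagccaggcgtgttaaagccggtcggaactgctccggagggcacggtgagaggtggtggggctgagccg
CENPN: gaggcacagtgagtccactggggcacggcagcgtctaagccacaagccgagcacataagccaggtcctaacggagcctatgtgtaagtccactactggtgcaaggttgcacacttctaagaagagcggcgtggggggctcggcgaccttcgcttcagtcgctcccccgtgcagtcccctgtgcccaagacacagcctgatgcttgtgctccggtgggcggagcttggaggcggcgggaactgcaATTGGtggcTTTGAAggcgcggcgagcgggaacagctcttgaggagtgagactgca
PLK1: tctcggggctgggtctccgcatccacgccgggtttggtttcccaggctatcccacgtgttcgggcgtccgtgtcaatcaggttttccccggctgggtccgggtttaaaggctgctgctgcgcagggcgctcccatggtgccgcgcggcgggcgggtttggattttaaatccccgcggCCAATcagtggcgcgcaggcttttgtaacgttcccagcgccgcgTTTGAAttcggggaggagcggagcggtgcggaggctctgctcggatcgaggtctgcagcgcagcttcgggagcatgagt
KIF11: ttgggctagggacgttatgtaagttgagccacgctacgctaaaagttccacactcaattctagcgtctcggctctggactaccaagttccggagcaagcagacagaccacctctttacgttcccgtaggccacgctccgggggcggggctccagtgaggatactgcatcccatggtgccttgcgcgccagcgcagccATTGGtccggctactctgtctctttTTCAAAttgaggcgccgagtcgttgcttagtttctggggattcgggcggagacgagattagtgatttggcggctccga
TOP2A: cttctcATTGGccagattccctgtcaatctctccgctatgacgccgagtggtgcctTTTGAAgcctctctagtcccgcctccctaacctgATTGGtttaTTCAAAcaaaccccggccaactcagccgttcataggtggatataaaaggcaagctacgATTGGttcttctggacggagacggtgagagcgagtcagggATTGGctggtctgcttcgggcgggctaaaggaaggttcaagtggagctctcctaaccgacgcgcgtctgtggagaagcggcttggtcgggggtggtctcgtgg
Counted from the gene's start, the CHR of CDCA3 began at position −3, that of CENPN at 4, that of PLK1 at −29 and that of KIF11 at −28. CDC20 held a pair, of which the nearer began at position −65. In TOP2A the nearer of a pair began at position −151, and the window held 4 CCAAT boxes.

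Array medians of the signal ran from 107 to 136 intensity units. The labels were checked against known genes. The single YAP1 probe stood below the filter on dim probes (6.18 on the log2 scale), at 6.08 ± 0.09 (SD, n = 3) for mock, 6.04 ± 0.09 for vector and 6.12 ± 0.06 for YAP-S127A, and so did not check the construct. Of 4 tested YAP targets, CCN1 was 2.34 higher on the log2 scale in YAP-S127A than in vector arrays and 2.65 higher than in mock arrays, and CCN2 1.08 and 1.14 higher. ANKRD1 differed by 0.25 and 0.13 and AMOTL2 by 0.20 and −0.01, and neither passed. All 8 epithelial markers passed the filter, and 7 of them had group means of 10.05 to 14.14, while CLDN4 lay between 6.77 and 6.99. These markers were not stable, since against each control 2 rose, 2 fell and 4 did not pass (limma). Their changes ran from −0.44 to 1.54 against vector and from −0.52 to 1.25 against mock. The 5 fibroblast markers that passed had group means of at most 7.12, all 5 were above both controls in YAP-S127A arrays (by 0.11 to 0.29 and 0.04 to 0.37, none past the adjusted threshold), and their part in the results below was not tested. Of the leukocyte markers tested, PTPRC and CD14 stood near the filter at 6.13 to 6.46, while CD68 had group means of 9.69 to 9.74, and none passed the test against either control. Mock array 1 stood apart on the first 2 principal components of all genes (scores of −15.9 and 17.9, against −9.24 to −4.07 and −9.94 to 3.15 for the other controls and, on the second, all other arrays). Named genes whose call ended without it are marked as such below. Most changes that did not pass are given with every array only.

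Against both controls the mitosis and G2/M genes lay slightly higher in YAP-S127A cells, by amounts that few single genes could show beyond the spread of the arrays. Of the 50 genes 40 were above vector and 10 below, where 48.6% of all genes tested were above it. The median change was 0.11 on the log2 scale (7.61%), against −0.01 over all genes. Compared with mock, 42 were above and 8 below, where 49.4% of all genes were above, with a median of 0.09 (6.70%) against −0.002. Between vector and mock, 25 were above and 25 below, with a median of −0.002. When the arrays were instead scaled to equal medians, 35 genes were above vector and 31 above mock, with medians of 0.06 and 0.04 while the medians of all genes became −0.04 and −0.03. The YAP-S127A arrays are shared by both comparisons, so these are not independent of each other. Without mock array 1 the median against mock was 0.10 with 42 above, and without mock array 3 it was 0.09 with 34 above and 16 below.

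By single genes, CDCA3 and CENPM rose against mock and 48 genes did not pass (limma, adjusted p under 0.05 over all genes), where 4.25% of all genes were called (2.18% higher and 2.07% lower). Against vector 0 of 50 passed by limma, where 3.45% of all genes were called (1.76% higher and 1.7% lower). At an unadjusted p under 0.05, 8 were higher than vector and 0 lower, where 7.31% and 8.3% of all genes were, and 6 were higher than mock and 0 lower, where 8.42% and 8.61% were. Between vector and mock 0 of 50 passed by limma, where 0.0124% of all genes did, and 1, PLK1, was lower at an unadjusted p under 0.05, where 2.86% of all genes were lower, 2.77% higher and 5.63% either. For the brightest probes, the intervals bound a hidden change only on this normalized scale and with a spread that may be only technical. Dimmer probes were given no interval, and their changes against vector ran from −0.18 (RACGAP1) to 0.53 (BUB3). The 95% interval of every one of the 50 changes against vector lay within 1.5-fold in either direction, and the median half-width of these intervals was 0.22 on the log2 scale. Over all genes 15267 of 16180 intervals did so. Against mock 48 of the 50 intervals lay within 1.5-fold, the exceptions being CDCA3, with an upper bound of 0.66, and CENPM, with 0.60. Among all genes 15075 of 16180 intervals against mock lay within 1.5-fold.

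**Figure D1:**
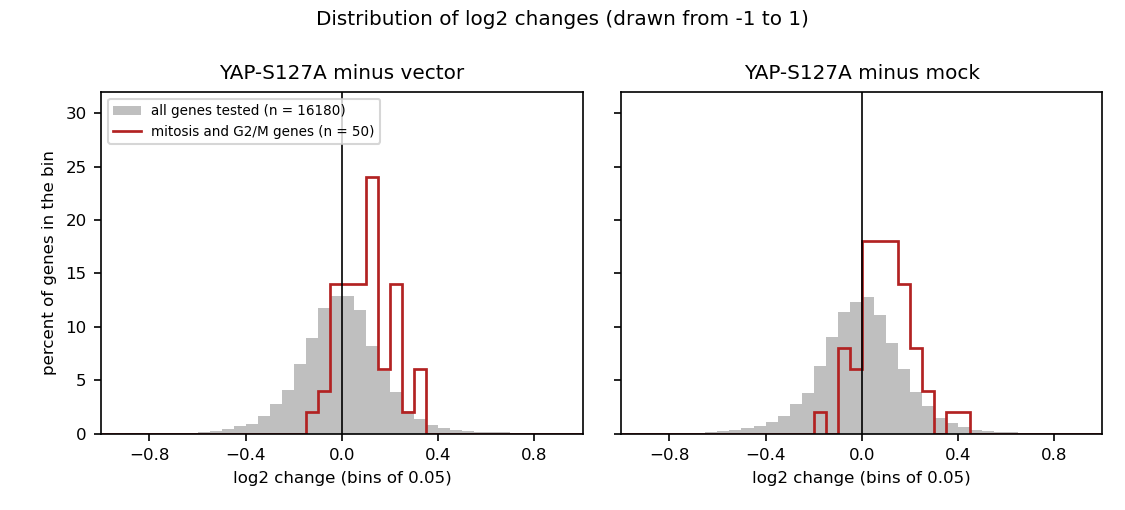
Distribution of log2 changes in YAP-S127A against vector (left) and mock (right), with the change in bins of 0.05 on the x axis and the percent of genes in each bin on the y axis, for the 16180 genes tested (grey) and the 50 mitosis and G2/M genes (red line). The red line sits slightly to the right of the grey bars in both panels, with medians of 0.11 and 0.09, and reaches no further than 0.33 and 0.44.

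Array by array, the median deviation of the 50 genes was above 0 on every YAP-S127A array but differed in size. For each array the deviation of a gene from its own mean over the 9 arrays was taken. Its median over the 50 genes was 0.08, 0.06 and 0.04 on YAP-S127A arrays 1, 2 and 3. On mock arrays 1 to 3 it was −0.03, 0.004 and −0.05, and on vector arrays 1 to 3 it was −0.005, −0.01 and −0.07. On YAP-S127A array 1, 44 of the genes stood above their own mean, on array 2 it was 38 and on array 3 it was 32. The control arrays ranged from 16 on vector array 3 to 26 on mock array 2. The median over all genes tested stayed between −0.01 and 0.01 on every array. For the 50 genes the SD of this median between replicate arrays was 0.03. These medians by array were not recomputed after scaling to equal medians. Of the 50 genes 8 had all 3 YAP-S127A arrays above all 6 controls, and 0 had them below. Over all genes tested 5.62% lay above and 5.64% below in this way. The 8 were CDCA3, CDC20, PTTG1, CDCA5, CENPM, CENPN, NDC80 and NUF2. After scaling to equal medians 0 of the 50 were so separated, where 2.24% of all genes lay above, so this count depends on the normalization.

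**Figure D2:**
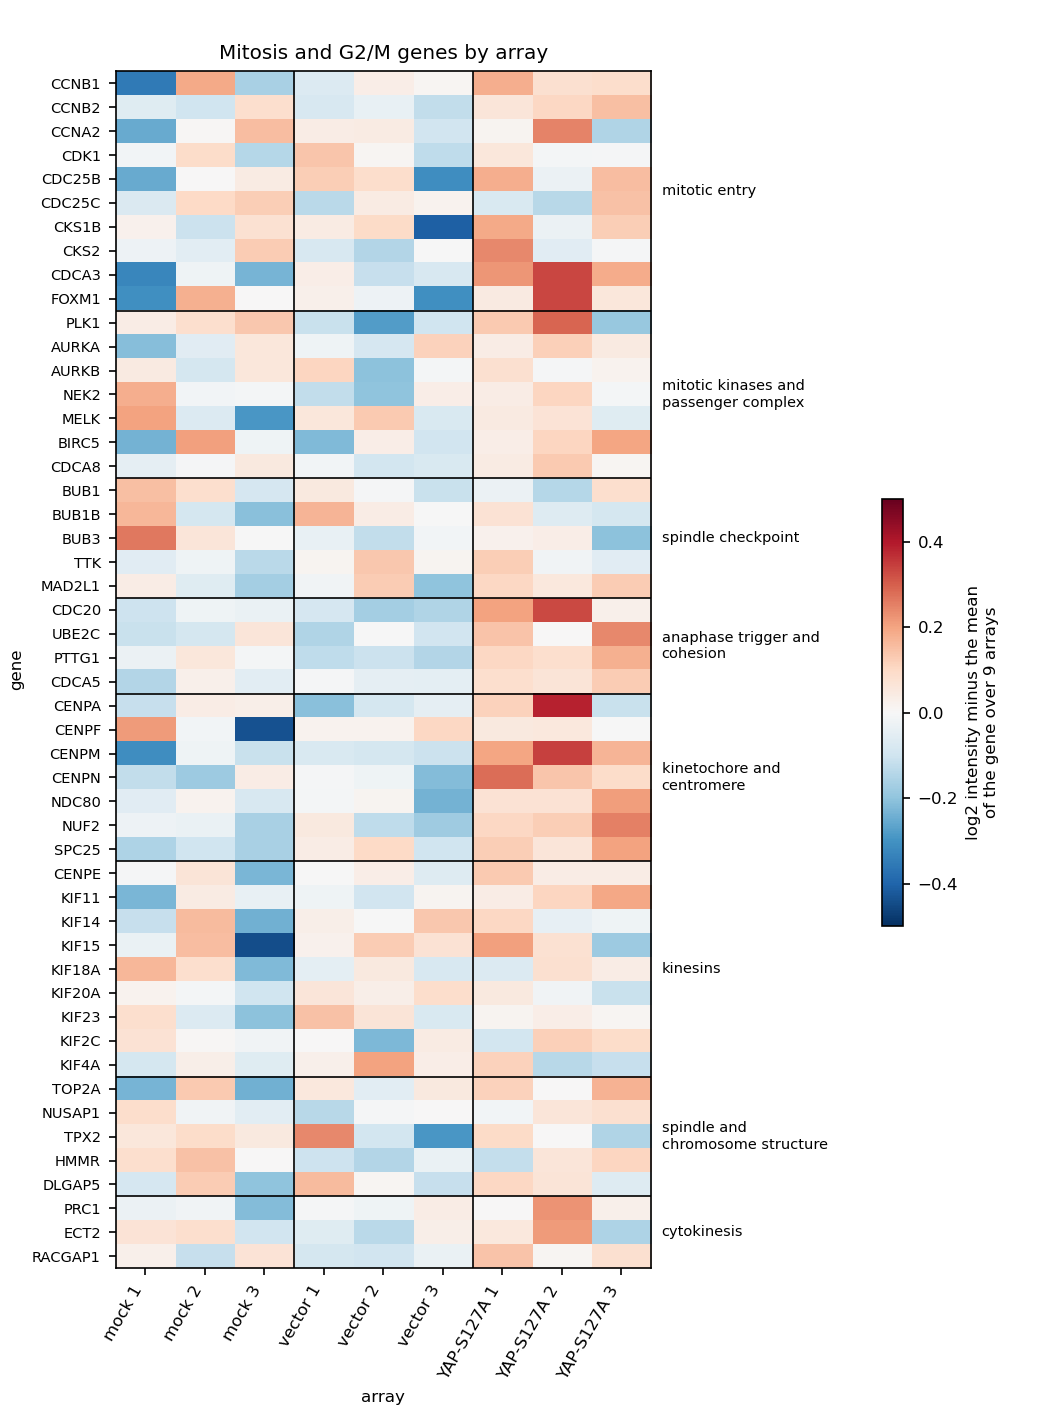
Each row is 1 of the 50 genes, ordered by role, and each column 1 array; colour gives the log2 intensity minus the mean of that gene over the 9 arrays, from −0.5 (blue) to 0.5 (red). Of the 8 genes whose YAP-S127A cells are all redder than every control cell, 4 are kinetochore and 3 anaphase genes, and the kinesin and spindle checkpoint rows show no block of one colour across the YAP-S127A columns.

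Genes of mitotic entry were the cyclins CCNB1, CCNB2 and CCNA2, their kinase CDK1, the activating phosphatases CDC25B and CDC25C, the CDK-binding subunits CKS1B and CKS2, the transcription factor FOXM1, and CDCA3, which helps degrade the CDK1 inhibitor WEE1. All 10 lay above vector, by 0.004 to 0.30 (median 0.13), and 9 lay above mock (median 0.11, range −0.07 to 0.44). After scaling to equal medians 8 lay above vector and 8 above mock, with medians of 0.11 and 0.07. The median against vector was 0.08 without vector array 3, and that against mock was 0.07 without mock array 1 and 0.17 without mock array 3. CDCA3 had log2 intensities of 9.73, 10.04 and 9.83 on mock arrays 1 to 3, of 10.09, 9.94 and 9.98 on vector arrays and of 10.28, 10.39 and 10.25 on those with YAP-S127A, which all lay above every control, and mock array 1 was the lowest. CDCA3 rose by 0.44 ± 0.11 (log2, SE) against mock, or 1.36-fold (limma, adjusted p = 0.0183), and differed by 0.30 ± 0.11 from vector (adjusted p = 0.134). Its call against mock ended without mock array 1 (change 0.37, adjusted p = 0.0909), without YAP-S127A array 1 (0.0579) or array 2 (0.101), and after scaling to equal medians (0.219).

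FOXM1, which activates many of the other genes listed here, stood at 8.59, 9.07 and 8.89 in mock, 8.92, 8.87 and 8.59 in vector and 8.93, 9.23 and 8.95 in YAP-S127A arrays. The groups overlapped, and the differences of 0.25 ± 0.13 from vector and 0.19 ± 0.13 from mock did not pass (adjusted p = 0.365 and 0.505). CDK1 and CCNA2 differed little, CDK1 by 0.01 from vector and 0.03 from mock and CCNA2 by 0.04 and 0.07. CCNB1 differed by 0.12 and 0.22, and CCNB2 by 0.18 and 0.13, none of which passed. The CKS1B and CKS2 changes were 0.18 and 0.13 from vector and 0.10 and 0.04 from mock. Their dimmer probes disagreed with these, at 0.38 and 0.43 for CKS1B and −0.11 and −0.19 for CKS2 against vector and mock. Those of CDC25B were 0.14 and 0.17, and those of CDC25C 0.004 and −0.07.

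Mitotic kinases and the chromosomal passenger complex, which corrects faulty attachments, made up 7 genes, and 6 lay above vector (median 0.12) and 5 above mock (median 0.06). After scaling to equal medians the medians were 0.05 and −0.02, and with the mean of each gene's probes the median against vector was 0.06. PLK1, the Polo-like kinase of centrosome maturation and mitotic entry, read 7.92, 7.97 and 8.02 in mock, 7.77, 7.60 and 7.78 in vector and 8.01, 8.17 and 7.69 in YAP-S127A arrays. Vector arrays were lower than mock arrays without overlap, while YAP-S127A array 3 lay among the vector arrays, array 1 among the mock arrays and array 2 above all controls. The changes of PLK1 were 0.24 ± 0.12 against vector and −0.01 ± 0.12 against mock (adjusted p = 0.316 and 0.987). BIRC5, the survivin subunit of the passenger complex, read 9.06, 9.5 and 9.27 in mock, 9.07, 9.33 and 9.20 in vector and 9.33, 9.40 and 9.49 in YAP-S127A arrays. These overlapped with the controls, since mock array 2 was the highest of all 9. The changes of BIRC5 were 0.21 and 0.13. AURKA and AURKB, the Aurora kinases of spindle assembly and of the passenger complex, differed by 0.06 from vector each, and by 0.14 and 0.03 from mock. Borealin, encoded by CDCA8, differed by 0.12 and 0.06, the centrosomal kinase NEK2 by 0.14 and −0.01, and the kinase MELK by −0.02 and 0.07.

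The spindle checkpoint genes showed no common direction. Of BUB1, BUB1B, BUB3, TTK and MAD2L1, which encode the sensor kinases and the inhibitors of CDC20, 2 lay above vector and 3 below, with a median of −0.01 and a range of −0.09 to 0.12. Against mock 3 lay above and 2 below, with a median of 0.02 that became −0.06 after scaling to equal medians. Leaving out 1 array moved these medians between −0.05 and 0.02 against vector and between −0.07 and 0.10 against mock. MAD2L1, which encodes the CDC20 inhibitor MAD2, read 11.20, 11.10 and 10.99 in mock, 11.14, 11.29 and 10.96 in vector and 11.26, 11.21 and 11.28 in YAP-S127A arrays, which overlapped with vector array 2. It differed by 0.12 ± 0.11 and 0.16 ± 0.11 (adjusted p = 0.647 and 0.497). BUB3, which brings BUB1 and BUB1B to kinetochores, read 11.96, 11.76 and 11.70 in mock, 11.66, 11.57 and 11.68 in vector and 11.72, 11.73 and 11.49 in YAP-S127A arrays. Mock array 1 was the highest and YAP-S127A array 3 the lowest. The brightest BUB3 probe differed by 0.01 and −0.16 (adjusted p = 0.987 and 0.504), but 1 of its 3 dimmer probes, singled out after its values were seen, differed by 0.53 from vector and 0.53 from mock, and the others by −0.01 and 0.23 from vector.

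Anaphase genes lay higher as a group of 4. CDC20 activates the anaphase-promoting complex, UBE2C is its ubiquitin-conjugating enzyme, PTTG1 encodes securin, the inhibitor of separase, and CDCA5 encodes sororin, which protects cohesion. Their changes ran from 0.12 to 0.32 against vector (median 0.23) and from 0.11 to 0.24 against mock (median 0.16), none past the adjusted threshold. The median against mock was 0.10 after scaling to equal medians and 0.12 without mock array 1. That against vector was 0.12 with the mean of each gene's probes. CDC20 read 11.90, 11.99 and 11.97 in mock, 11.92, 11.83 and 11.86 in vector and 12.21, 12.34 and 12.03 in YAP-S127A arrays. All 3 of the latter were above all 6 controls, array 3 by the least. The change of CDC20 was 0.32 ± 0.10 against vector and 0.24 ± 0.10 against mock (limma, adjusted p = 0.0975 and 0.23). It passed against vector with the deposited log2 values (adjusted p = 0.0274), without background correction (0.0388) and with trend and robust moderation (0.0473), and over all alternatives that adjusted p ran up to 0.398.

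PTTG1 read 11.65, 11.73 and 11.67 in mock, 11.55, 11.57 and 11.53 in vector and 11.78, 11.76 and 11.85 in YAP-S127A arrays. No array of one group overlapped with another, and vector was the lowest of the 3 groups. The differences of 0.25 ± 0.10 and 0.11 ± 0.10 did not pass (adjusted p = 0.187 and 0.614), and the dimmer PTTG1 probe differed by −0.03 from vector and 0.01 from mock. PTTG1 passed against vector with the deposited values (adjusted p = 0.0413). UBE2C differed by 0.21 and 0.17, and CDCA5 by 0.12 and 0.15.

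Kinetochore and centromere genes also lay higher. Whether their median or that of the anaphase genes was the higher against vector changed with the processing, and differences between role groups were not tested. CENPA is the histone of centromeric chromatin, CENPM and CENPN belong to the constitutive centromere complex, NDC80, NUF2 and SPC25 form most of the complex that grips microtubules, and CENPF is a large outer kinetochore protein. Of these 7, 6 lay above vector (median 0.24, range −0.01 to 0.33) and 7 above mock (median 0.23, range 0.11 to 0.38). After scaling to equal medians the medians were 0.16 and 0.15. CENPM read 8.99, 9.28 and 9.19 in mock, 9.22, 9.21 and 9.19 in vector and 9.5, 9.64 and 9.47 with YAP-S127A. These last lay above all controls, and mock array 1 was again the lowest.

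CENPM rose by 0.38 ± 0.10 (log2, SE) against mock, or 1.3-fold (limma, adjusted p = 0.0366), and differed by 0.33 ± 0.10 from vector (adjusted p = 0.0931). Its dimmer probes also lay higher, by 0.36 and 0.32 against mock and 0.45 and 0.14 against vector. The call against mock ended without mock array 1 (change 0.30, adjusted p = 0.173), vector array 2 (0.0508), or YAP-S127A array 1 (0.0900), 2 (0.179) or 3 (0.0598), and after scaling to equal medians (0.326). CENPN read 9.83, 9.78 and 9.99 in mock, 9.95, 9.94 and 9.74 in vector and 10.23, 10.10 and 10.05 in YAP-S127A arrays. For CENPN all of the latter lay above all controls, with array 3 closest to them, and the changes of 0.25 ± 0.11 and 0.26 ± 0.11 did not pass (adjusted p = 0.231 and 0.195). NUF2 differed by 0.25 and 0.23, NDC80 by 0.20 and 0.16, SPC25 by 0.11 and 0.27 and CENPA by 0.24 and 0.15. CENPF differed by −0.01 and 0.11.

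**Figure D3:**
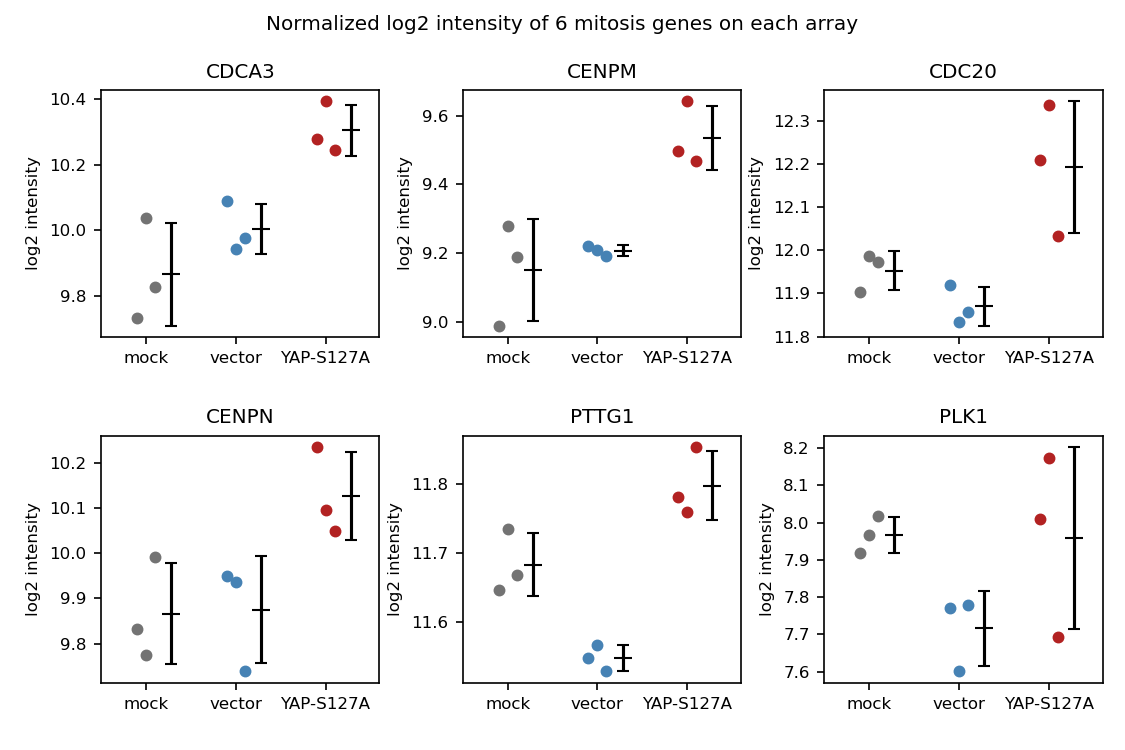
Normalized log2 intensity (y axis) of 6 genes on each of the 3 mock, 3 vector and 3 YAP-S127A arrays (points), with the mean and SD of the group beside them; the y axes do not start at 0 and differ between panels. In CDCA3, CENPM, CDC20, CENPN and PTTG1 all YAP-S127A points lie above the control points, and in PLK1 1 point lies among the vector points, 1 among the mock points and 1 above all controls.

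Kinesins did not share a direction against vector. Of 9 motors, counting CENPE, which carries chromosomes to the spindle equator, 4 lay above vector and 5 below (median −0.03, range −0.13 to 0.15), and the median was above 0 without vector array 1 (0.02) or YAP-S127A array 3 (0.03). Against mock 8 lay above (median 0.08), but that median was −0.001 after scaling to equal medians and −0.01 without mock array 3. Mock array 3 was low for these genes, with a median deviation of −0.20 where the other arrays ran from −0.01 to 0.05. KIF11, the motor that separates the spindle poles, read 9.89, 10.16 and 10.08 in mock, 10.10, 10.02 and 10.13 in vector and 10.16, 10.23 and 10.31 in YAP-S127A arrays. These last overlapped with the controls only through mock array 2, and the changes were 0.15 ± 0.10 and 0.19 ± 0.10 (adjusted p = 0.541 and 0.384). A dimmer KIF11 probe differed by −0.01 from vector. KIF15, which can take over from KIF11, read 8.09, 8.28 and 7.68 in mock, 8.15, 8.25 and 8.20 in vector and 8.33, 8.20 and 7.95 in YAP-S127A arrays. The groups overlapped widely, with mock array 3 the lowest, and the changes were −0.04 ± 0.13 and 0.14 ± 0.13. KIF2C, which depolymerises microtubules, differed by 0.10 from vector and 0.02 from mock, KIF18A, which dampens chromosome oscillation, by 0.04 and 0.01, and CENPE by 0.08 and 0.12. The chromokinesin KIF4A differed by −0.13 and −0.01. The cytokinesis motors KIF14, KIF20A and KIF23 differed by −0.04, −0.08 and −0.03 from vector and by 0.08, 0.005 and 0.08 from mock.

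Spindle and chromosome structure genes stood close to the controls. TOP2A untangles chromatids, TPX2 activates AURKA on the spindle, NUSAP1 and HMMR bind spindle microtubules and DLGAP5 stabilises them. All 5 lay above vector, by 0.02 to 0.11 (median 0.08), and 3 lay above mock (median 0.04). After scaling to equal medians 3 lay above vector and 2 above mock (median −0.002). The median against vector was 0.04 without vector array 2, and that against mock ran from 0.01 to 0.07 with 1 array left out. TOP2A read 11.59, 11.95 and 11.57 in mock, 11.87, 11.77 and 11.87 in vector and 11.93, 11.82 and 11.99 in YAP-S127A arrays, overlapping with both controls. Its changes were 0.08 ± 0.11 and 0.21 ± 0.11 (adjusted p = 0.817 and 0.356). HMMR read 10.31, 10.37 and 10.22 in mock, 10.12, 10.08 and 10.19 in vector and 10.11, 10.28 and 10.33 in YAP-S127A arrays, so the YAP-S127A arrays reached from the vector to the mock level. The HMMR changes were 0.11 ± 0.10 and −0.06 ± 0.10. NUSAP1 differed by 0.09 and 0.04, TPX2 by 0.03 and −0.08, and DLGAP5 by 0.02 and 0.09.

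Cytokinesis was represented by PRC1, which bundles the midzone microtubules, RACGAP1, the partner of KIF23 in centralspindlin, and ECT2, which activates RhoA at the cleavage site. All 3 lay above both controls, by 0.08 to 0.15 (median 0.09) and by 0.02 to 0.17 (median 0.08). The median against vector was 0.01 without YAP-S127A array 2 and 0.15 without array 3. Against mock it was 0.05 without mock array 2 or YAP-S127A array 1, and 0.03, with 2 above and 1 below, after scaling to equal medians. PRC1 read 11.75, 11.76 and 11.56 in mock, 11.77, 11.76 and 11.81 in vector and 11.78, 12.00 and 11.80 in YAP-S127A arrays, of which only array 2 lay above all controls. Its changes were 0.08 ± 0.10 and 0.17 ± 0.10 (adjusted p = 0.796 and 0.435). RACGAP1 read 10.07, 9.93 and 10.11 in mock, 9.96, 9.95 and 10.01 in vector and 10.18, 10.05 and 10.12 in YAP-S127A arrays, above vector on all 3 arrays but overlapping with mock. The changes of RACGAP1 were 0.15 ± 0.10 and 0.08 ± 0.10, and its dimmer probe differed by −0.18 and −0.04. ECT2 differed by 0.09 and 0.02.

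**Figure D4:**
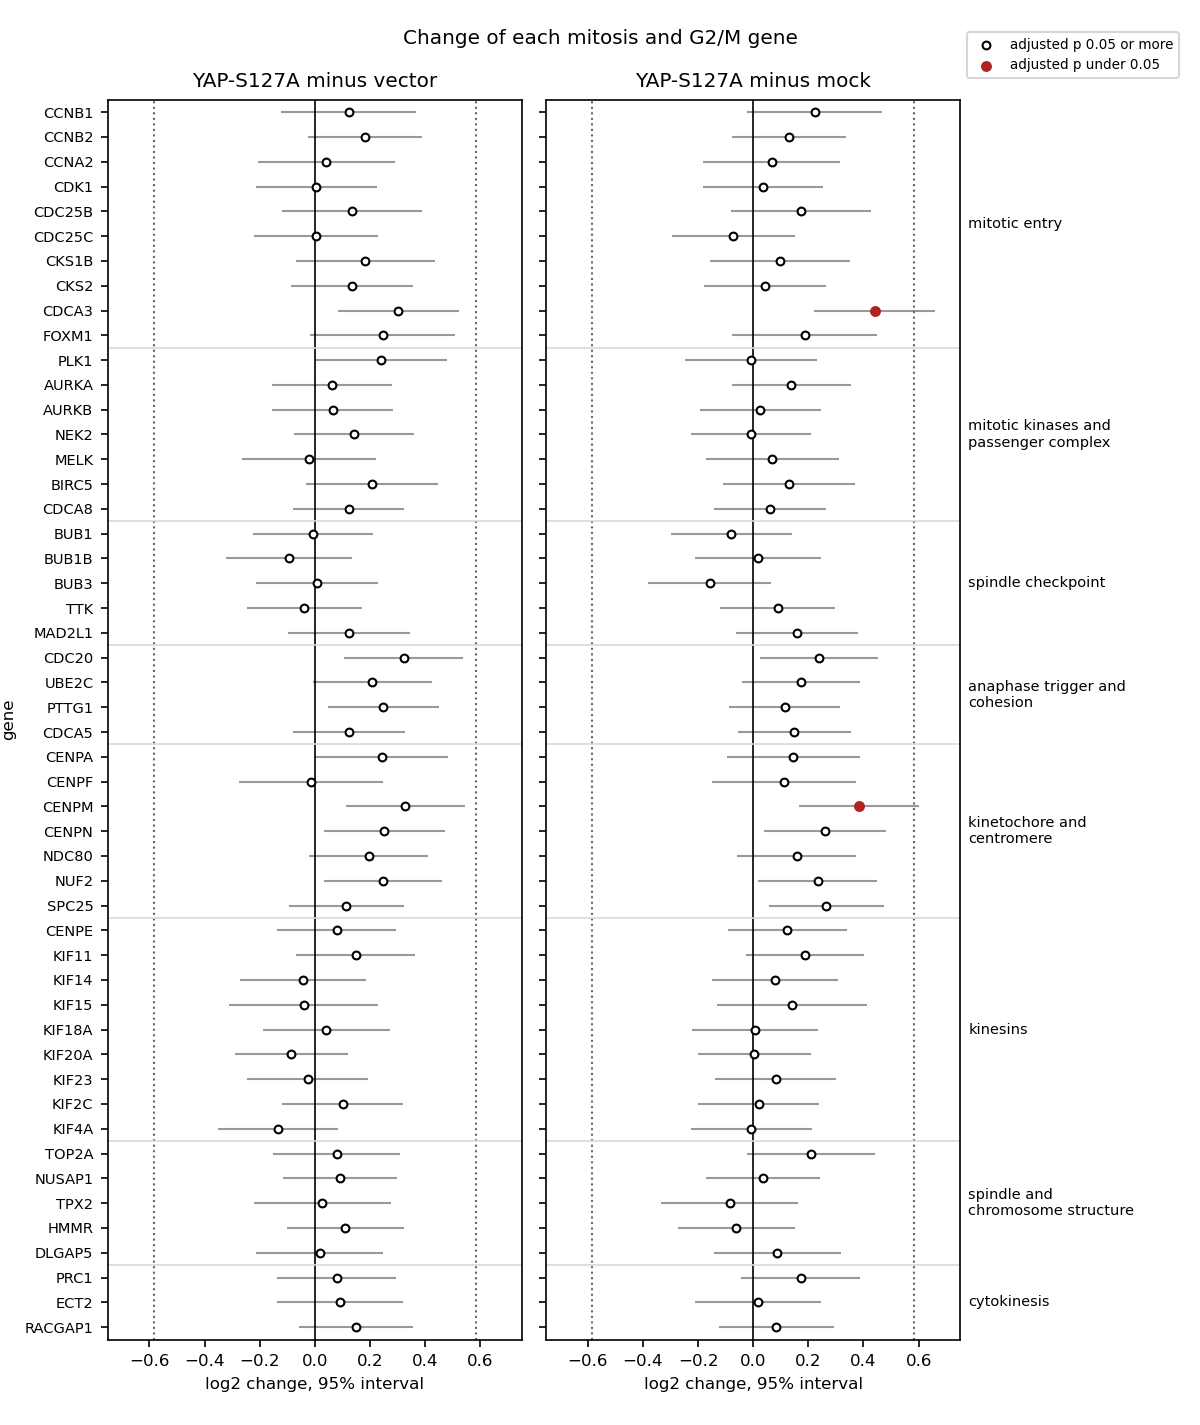
Log2 change of each of the 50 genes in YAP-S127A against vector (left) and mock (right) on the x axis, with its 95% interval from limma; dotted lines mark 1.5-fold in either direction and filled points mark an adjusted p under 0.05. Every interval on the left lies between the dotted lines, and CDCA3 and CENPM are the filled points on the right.

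Of the 50 genes 25 had more than 1 probe, 30 further probes in all, each of which passed the filter. In 14 of these 25 genes all probes had changes of 1 sign against vector, and in 11 a further probe had the opposite sign. Against mock the numbers were 14 and 11 as well. Besides the genes already given, dimmer probes differed by −0.06 and 0.04 from vector for NUF2, by 0.004 for UBE2C, by −0.09 for NEK2, by −0.12 for CENPE and by 0.37 for MAD2L1. With the mean of each gene's probes the medians against mock were 0.09 for the spindle checkpoint, 0.03 for kinesins, 0.003 for spindle and chromosome structure and 0.02 for cytokinesis.

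Related genes outside the list were read in the same fit. Of 60 further mitosis genes, most of them for centromere, spindle and cytokinesis proteins, 59 were tested. Against vector 1 rose, 0 fell and 58 did not pass, with a median change of 0.11. Against mock 3 rose, 0 fell and 56 did not pass, with a median of 0.12. Of all genes tested, 1.76% rose and 1.7% fell against vector, and 2.18% rose and 2.07% fell against mock. After scaling to equal medians these medians were 0.07 and 0.06. The centromere gene CENPQ rose by 0.41 against vector and 0.40 against mock (limma, adjusted p = 0.0458 and 0.048). The midbody kinase gene CIT rose by 0.38 and PIMREG by 0.44 against mock (adjusted p = 0.0327 and 0.031). All of these calls ended without YAP-S127A array 1 (adjusted p of 0.189 and 0.197 for CENPQ, 0.0979 for CIT and 0.129 for PIMREG) and after scaling to equal medians. They also ended without mock array 2 (0.0555 and 0.0811 for CENPQ, 0.127 for CIT and 0.0539 for PIMREG), those of CIT and PIMREG without YAP-S127A array 2 (0.150 and 0.170), and that of PIMREG without mock array 1 (0.133). Those of CENPQ ended without YAP-S127A array 3 (0.179 and 0.177) and vector array 1 or 3 (0.177 and 0.163 against vector, 0.0538 and 0.0618 against mock), and against mock also without mock array 1 or 3 or vector array 2 (0.0895, 0.110 and 0.0523). The change of CIT against mock was 0.23 with the deposited log2 values (0.056).

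Genes of condensin, cohesin and the anaphase-promoting complex showed medians near that of all genes. Of 16 tested condensin and cohesin genes 0 passed by limma against either control, with medians of 0.01 and 0.001, and at an unadjusted p under 0.05 2 were higher than vector, where 7.31% of all genes were, and 1 lower than mock, where 8.61% were. Of 13 tested subunits and regulators of the anaphase-promoting complex 0 passed by limma, with medians of −0.02 and −0.001. At an unadjusted p under 0.05 none of the 13 differed from vector, where 15.6% of all genes did. By the same measure 1 was higher than mock and 1 lower, where 8.42% and 8.61% of all genes were.

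Among 7 genes that restrain entry into mitosis, SFN, which encodes the 14-3-3 sigma protein that holds cyclin B and CDK1 in the cytoplasm, rose by 0.79 against vector and 0.94 against mock (limma, adjusted p = 0.00127 and 0.000145). Its call stood under all 17 alternatives in both comparisons. The other 6 did not pass against either control, where 3.45% of all genes were called against vector and 4.25% against mock. At an unadjusted p under 0.05, 3 of the 7 were higher than vector and 0 lower, where 7.31% and 8.3% of all genes were. By that measure 3 were higher than mock and 1 lower, where 8.42% and 8.61% were. Among 15 regulators of G2/M transcription, RBL2, the pocket protein of the repressing DREAM complex, fell by 0.40 against both vector and mock (adjusted p = 0.0371 and 0.0342), and RBBP4, a histone-binding subunit of MuvB, rose by 0.36 against vector (0.0433) and differed by 0.17 from mock. The calls of RBL2 and RBBP4 against vector ended without any 1 of the vector and YAP-S127A arrays (adjusted p of 0.0738 to 0.160 for RBL2 and 0.0678 to 0.166 for RBBP4), that of RBBP4 also without mock array 2 (0.0505), and that of RBL2 against mock without any 1 of the YAP-S127A arrays (0.0674 to 0.147) or mock array 1 (0.181). RBBP4 differed from vector by 0.29 after scaling to equal medians (0.398) and by 0.15 with the mean of its probes (0.435). The remaining 13 did not pass against either control. At an unadjusted p under 0.05, 1 of the 15 was higher and 1 lower than vector, and likewise than mock, beside the same shares of all genes.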

How the data were processed

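The deposited signal table held bead-summarised intensity values on a linear scale for 47231 probes, with no value below 0 and medians that differed between arrays. The deposited log2 values had 1 distribution on all arrays and the rank order of the same signals. Per the submitters' processing notes BeadStudio was used, without version or settings. Signals were corrected by normexp (offset 50), converted to log2 and then quantile normalized with limma 3.58.1 in R 4.3.3. The offset shrinks the changes of dim genes. Probes with a mean above the lower quartile (6.18) were kept (35423), and 30113 probes had 1 gene symbol, 8 several and 17110 none. For 30074 of the probes with 1 symbol, the current symbol was taken by gene ID from a GRCh38.p14 table. The brightest probe represented each gene.

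All 9 arrays entered 1 limma fit with group means, and p-values were adjusted by Benjamini-Hochberg over 16180 genes, called under 0.05. The fit had 6 residual and 16.4 prior degrees of freedom and was tested on simulated data. No column names a slide. The members and lists were chosen with earlier results of these data known. Values on every array are given for genes called in any comparison and for the 2 genes of each role with the lowest F-test p; genes of other lists are named where called. Alternatives were no background correction, scaling to equal medians, the deposited log2 values, no filter, the mean of a gene's probes, only the groups compared, trend and robust moderation, a replicate block, and leaving out each array. Those for role medians and for genes outside the list were added after seeing the data.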

Additional observations from a re-analysis of the deposited data

How the results depend on the processing

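Against vector, 0 genes of the list passed in the main setting, 2 (CDC20 and CENPM) without background correction, 3 (with PTTG1) with the deposited log2 values and 1 (CDC20) with trend and robust moderation. It was 0 with any 1 array left out. Against mock, 2 passed, but 0 after scaling to equal medians, 1 (CDCA3) with the mean of the probes or with only the arrays of the groups compared, and 0 to 2 with 1 array left out. The medians of the list became 0.060 and 0.041 after scaling to equal medians, and without 1 array they ran from 0.092 to 0.128 against vector, 0.082 to 0.127 against mock and −0.028 to 0.038 between the controls. The count of genes with YAP-S127A arrays beyond all controls was 0 after scaling to equal medians and 8 to 13 without 1 array. With 1 array left out, 6.18% to 9.44% of all genes lay above all controls, against 5.62% with every array. The cause of these differences was not tested.

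Over all genes, 559 calls against vector became 366 after scaling to equal medians (141 higher and 225 lower, against 284 and 275) and 291 to 738 without 1 array; 687 calls against mock (352 higher and 335 lower) became 470 (147 and 323) after that scaling and 325 to 820 without 1 array. The 2 calls between the controls became 1 with the deposited values, the mean of the probes or only the groups compared, and 1 to 54 without 1 array. Of 1122 changes of single genes recomputed, 1019 kept their sign and side of the threshold, 64 lost a call, 6 gained one, 33 changed sign with no call on either side and 0 called changes changed sign. Most of the 1122 were not called in the main setting, so the 1019 do not describe how stable the calls were. Among the recomputed calls, only those of SFN stood under every alternative.

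With replicate number as a block (replicate block), 0, 2 and 0 genes of the list passed against vector, against mock and between the controls, and 558, 648 and 2 of all genes. The medians of the list stayed at 0.11, 0.09 and −0.002. Outside the list, the calls of CENPQ (adjusted p of 0.0652 against vector and 0.0678 against mock) and RBBP4 (0.0565) ended under the block. The numbers showed no clear pairing of the arrays. Deviations of same-numbered arrays correlated from −0.15 to 0.10 across genes, and 1 of 9 pairs exceeded 0.1. For differently numbered arrays the correlations ran from −0.09 to 0.13, and 2 of 18 pairs exceeded 0.1. A weak effect shared by same-numbered arrays could not be seen in so few pairs. Other calls outside the list also ended: against mock, CENPQ without the filter (0.0501), CIT without background correction (0.065) and, with only the groups compared, CENPQ (0.0707), CIT (0.0618) and RBL2 (0.0653). The slide could not be used as a block, since no column names one. The number of arrays, and the background left in dim probes, limit the precision.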
